A study of Mus musculus with 9 samples.

Results

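The genes described here are the integrin subunits and laminin chains of the mouse, 35 genes measured by 36 probe sets of the Affymetrix Mouse Gene 2.0 ST array, out of 22180 genes that the array's annotation names by 1 symbol. They were taken by symbol, as every probe set whose single gene symbol starts with Itga, Itgb, Lama, Lamb or Lamc and ends in the number or letter of a subunit. This set was chosen with earlier results of these data known. The set holds 10 laminin chain genes and 25 integrin genes. Laminins are secreted trimers of 1 alpha, 1 beta and 1 gamma chain that form the sheet of the basement membrane under an epithelium. Integrins are paired alpha and beta receptors at the cell surface that bind laminins, collagens, fibronectin or vitronectin outside the cell and are coupled to actin or, for the pair of Itga6 and Itgb4, to keratin filaments inside it. In normal prostate, basal cells rest on a laminin-rich basement membrane, and loss or exchange of these receptors is a known feature of prostate cancer progression.

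The MYCCaP cell line was derived from a prostate carcinoma of transgenic mice that express human MYC in prostate epithelium. The 3 AZD1208 lines came from mice given AZD1208, an inhibitor of the PIM kinases, and the 3 vehicle lines from mice given vehicle. Per the series' title these tumours were recurrent and grew in castrated mice, and the labels of both groups read -DHT, meaning culture without the androgen dihydrotestosterone. The reference for both is the parental MYCCaP line, labelled +DHT, whose 3 arrays are technical replicates of 1 sample. All groups therefore descend from 1 transgenic tumour line, androgen and growth in a mouse differ together between the recurrent lines and the parental line and cannot be told apart, and no source used here says whether each line came from its own mouse. Values are log2 intensities, on which a difference of 1 is a 2-fold change, and the levels of different genes are not set against each other because each probe set has its own brightness.

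The array medians lay between 6.22 and 6.36, and the median SD of a gene was 0.25 between AZD1208 lines, 0.19 between vehicle lines and 0.09 between parental arrays. The array of AZD1208 3 had the lowest quality weight of the 7 samples (0.34, others 0.58 to 2.87). It also had the highest median, 6.36, and the smallest interquartile range, 2.87, against 2.98 to 3.12 on the other arrays. The effect of this narrower scale on genes of low value was not tested. Of the 9 epithelial markers, Krt8, a keratin of simple epithelia, was at 8.24 to 10.44 over the 9 arrays. The epithelial transcription factor Grhl2 was at 7.61 to 8.21 and Cldn4 at 6.61 to 8.83. Cdh1 (6.45 to 7.14) and Krt18 (6.47 to 7.34) were lower. Epcam, an adhesion protein of most epithelia, was at 4.51 to 5.08, under the value of 5.81 below which genes were not tested. Esrp1 (5.11 to 5.95), Cldn7 (5.70 to 5.97) and Ocln (5.68 to 6.55) lay around that value. The arrays carry no detection calls, so Epcam cannot be called absent. Of the 35 genes, 30 had a mean above that value and were tested. Lama4, Itga1, Itga8, Itgad and Itgam did not, and their values are given without a test.

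Among the tested genes the largest differences between recurrent lines and the parental line were those of 2 laminin chains, Lamb2 and Lamc3. Lamb2 encodes the beta2 chain, known from basement membranes at the neuromuscular junction and the kidney filter. Lamb2 was at 9.77, 10.76 and 9.54 in the lines AZD1208 1, 2 and 3, and at 10.26, 9.86 and 9.58 in the lines vehicle 1, 2 and 3, against 8.80, 8.72 and 8.53 on the parental arrays. All 6 recurrent lines lay above all 3 parental arrays, and the AZD1208 and vehicle lines overlapped. The mean was 9.96 ± 0.47 in recurrent lines (SD, n = 6) against 8.69 for the parental sample, a 2.42-fold ratio (1.28 on the log2 scale, SE 0.44, 95% interval 0.24 to 2.32). Its unadjusted p in limma was 0.0227, and it did not pass after Benjamini-Hochberg adjustment over all 15526 genes tested (adjusted p = 1.0). The 95% interval of the difference between AZD1208 and vehicle lines ran from -0.66 to 0.91.

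The 250 bases before the annotated start of Lamb2 are shown because this gene had the largest difference from the parental line. The sequence is RefSeq's for build GRCm38.p6, read 5′ to 3′ on the gene's strand.
Lamb2, chr9:108479612-108479861, plus strand: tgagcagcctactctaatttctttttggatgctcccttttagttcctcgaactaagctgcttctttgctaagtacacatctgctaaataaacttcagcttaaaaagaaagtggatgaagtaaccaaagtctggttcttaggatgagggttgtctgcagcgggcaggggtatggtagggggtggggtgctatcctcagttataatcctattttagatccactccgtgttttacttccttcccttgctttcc
Motifs were searched on both strands as CACGTG (the E-box of MYC and MAX), GGGCGG (the GC box), TGANTCA (AP-1) and AGAACA (a half-site of the androgen receptor), and matches are printed in capitals. The Lamb2 window holds none of these letters. Of 32851 windows of the same length before RefSeq starts, 6.02% held the E-box, 32.7% the GC box, 6.75% the AP-1 motif and 16.1% the half-site.

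Lamc3, which encodes the gamma3 chain, a less common partner in laminin trimers, had the second largest difference. It was at 8.49, 7.87 and 7.68 in AZD1208 1, 2 and 3 and at 8.68, 8.03 and 8.21 in vehicle 1, 2 and 3, against 7.41, 7.34 and 7.04 on the parental arrays. Again all 6 lines lay above all parental arrays. The mean was 8.16 ± 0.38 in recurrent lines (SD, n = 6) against 7.26 for the parental sample, a 1.86-fold ratio (0.90 on the log2 scale, SE 0.35, 95% interval 0.08 to 1.71), with an unadjusted p of 0.0353 in limma and an adjusted p = 1.0. Set against the parental line group by group, Lamb2 differed by 1.34 (SE 0.48) in AZD1208 lines and 1.21 (SE 0.48) in vehicle lines, and Lamc3 by 0.75 (SE 0.37) in AZD1208 lines and 1.04 (SE 0.37) in vehicle lines. These comparisons share the parental sample.

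Lamc1, which encodes the gamma1 chain found in most laminins, showed a smaller difference of 0.37 (SE 0.31). It was at 9.67, 10.01 and 9.36 in AZD1208 lines and 9.38, 10.02 and 9.73 in vehicle lines, against 9.40, 9.38 and 9.20 on the parental arrays, so that AZD1208 3 and vehicle 1 lay among the parental arrays. Lama5, the alpha5 chain of adult epithelial basement membranes, was at 9.78, 10.52 and 10.29 in AZD1208 lines and 9.91, 10.52 and 9.85 in vehicle lines, against 9.75 to 9.86 on the parental arrays (difference 0.34, SE 0.34). AZD1208 2 and vehicle 2 were the highest for both genes.

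Lamb1, the beta1 chain, and Lama4, the alpha4 chain of vascular and mesenchymal laminins, were high in 1 line. Lamb1 was at 8.78 in AZD1208 2, with 6.69 and 6.65 in AZD1208 1 and 3 and 6.75, 7.16 and 6.33 in vehicle lines, against 6.53 to 6.54 on the parental arrays. Lama4 was at 7.27 in AZD1208 2, with 5.36 and 5.60 in the other AZD1208 lines and 5.19, 5.21 and 5.54 in vehicle lines, against 5.45 to 5.47 on the parental arrays. Apart from AZD1208 2, the Lama4 values of both groups surrounded the parental ones. The mean of Lamb1 was 7.37 ± 1.22 in AZD1208 lines and 6.75 ± 0.41 in vehicle lines (SD, n = 3 each), a difference of 0.62 (SE 0.56) that turned to -0.080 without AZD1208 2.

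The window before the start of Lamb1 is shown as that of the laminin chain with the largest span over the recurrent lines (2.45). It is also from RefSeq, GRCm38.p6, with the same capitals.
Lamb1, chr12:31265043-31265292, plus strand: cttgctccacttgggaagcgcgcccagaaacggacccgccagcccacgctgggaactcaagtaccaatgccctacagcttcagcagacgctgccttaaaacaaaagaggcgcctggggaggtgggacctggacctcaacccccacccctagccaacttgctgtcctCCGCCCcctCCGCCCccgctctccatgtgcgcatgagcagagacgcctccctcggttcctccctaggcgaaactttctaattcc
It holds 2 matches to the GC box, both on the reverse strand, and none to the other motifs.

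Lamb3 and Lama3 encode chains of the anchoring laminin that basal epithelial cells secrete. Lamb3 was at 6.78, 6.90 and 7.28 in AZD1208 lines and 6.59, 7.70 and 7.36 in vehicle lines, against 7.58, 7.47 and 7.50 on the parental arrays (difference -0.42, SE 0.39). The exception was vehicle 2, the single line above the parental arrays. Lama3 spanned 7.48 to 7.79 in AZD1208 lines and 7.59 to 8.20 in vehicle lines, against 7.64 to 7.72 on the parental arrays, and vehicle 2 was again the highest (difference of recurrent lines from the parental line 0.026, SE 0.27). Lama1, the alpha1 chain of embryonic basement membranes, spanned 0.32 over the recurrent lines, and Lama2, the alpha2 chain of muscle, 0.30.

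**Figure D1:**
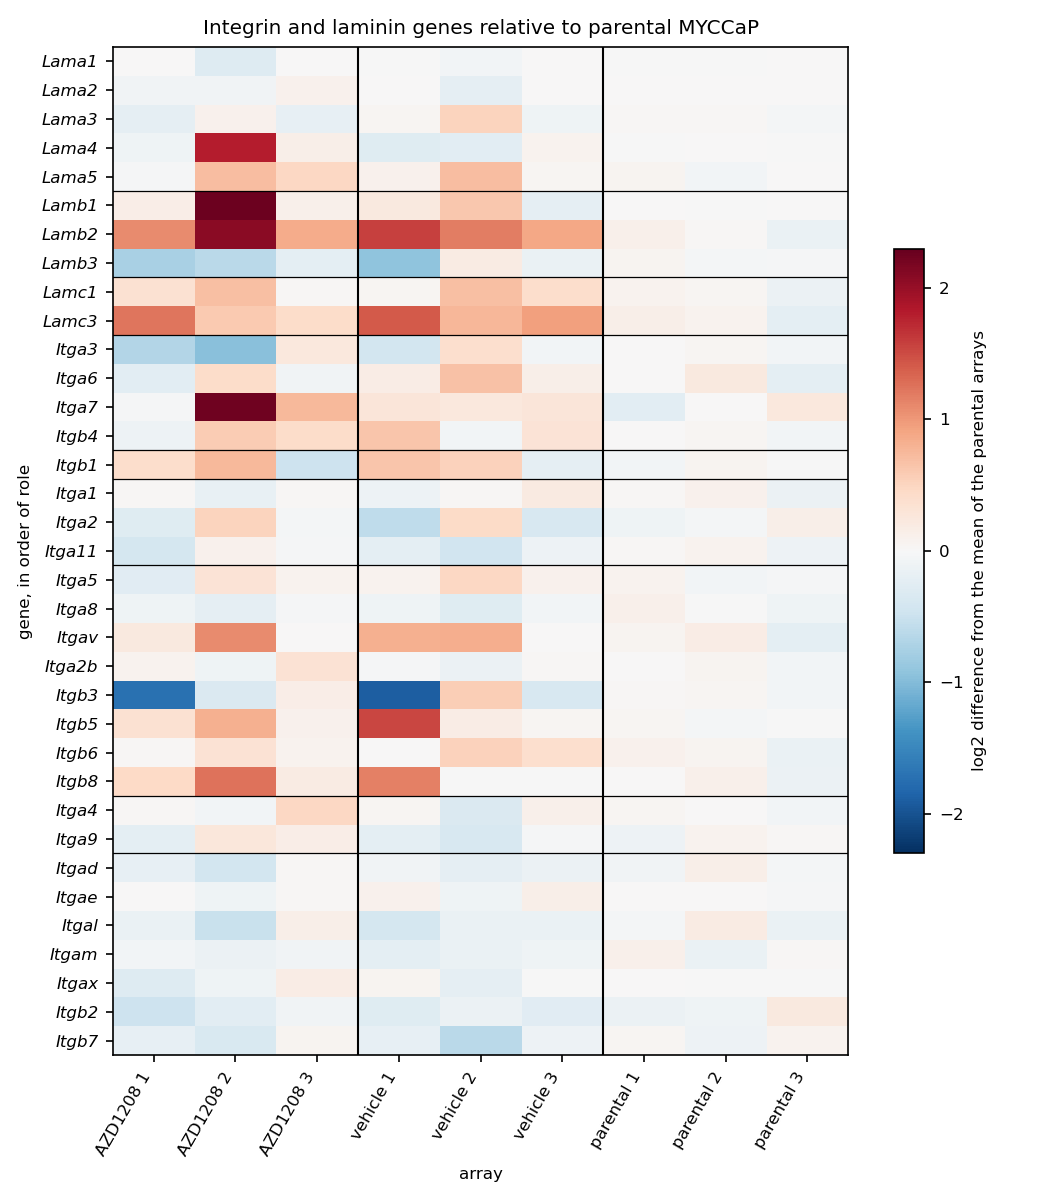
Log2 difference of each of the 35 genes (rows, in order of role) from the mean of the parental arrays, in the 3 AZD1208 lines, the 3 vehicle lines and the 3 parental arrays (columns); red is higher and blue lower. Lamb2 and Lamc3 are red in all 6 recurrent lines, AZD1208 2 holds the deepest red cells (Lamb1, Itga7, Lamb2 and Lama4), and Itgb3 is blue in AZD1208 1 and vehicle 1.

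Among the integrins that bind laminin, Itga7, the alpha7 subunit known from muscle and pericytes, varied most. It was at 6.92, 9.18 and 7.69 in AZD1208 1, 2 and 3 and at 7.23, 7.20 and 7.24 in vehicle lines, against 6.71, 6.95 and 7.19 on the parental arrays. AZD1208 2 and AZD1208 3 lay above every vehicle line, but AZD1208 1 lay below them, and the groups overlapped. The difference between AZD1208 lines (7.93 ± 1.15, SD, n = 3) and vehicle lines (7.22 ± 0.02, SD, n = 3) was 0.71 (SE 0.51), of which 0.08 was left without AZD1208 2.

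Itga3, the alpha3 subunit that pairs with Itgb1 to bind epithelial laminins, had a difference of the opposite sign between the groups. It was at 11.95, 11.66 and 12.87 in AZD1208 lines and 12.21, 13.01 and 12.56 in vehicle lines, against 12.64, 12.67 and 12.56 on the parental arrays. AZD1208 2, the highest line for Itga7, Lama4 and Lamb1, was the lowest for Itga3. The difference between AZD1208 and vehicle lines was -0.43 (SE 0.34), and it was -0.18 without AZD1208 2 and -0.79 without AZD1208 3.

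Itga6, the alpha6 subunit of basal cells, was at 9.73, 10.40 and 9.90 in AZD1208 lines and 10.16, 10.66 and 10.11 in vehicle lines, against 9.99, 10.20 and 9.75 on the parental arrays (difference between AZD1208 and vehicle lines -0.30, SE 0.23). Within the same-numbered pairs the Itga6 differences were -0.42, -0.26 and -0.21. Its partner Itgb4, the subunit that anchors hemidesmosomes, was at 6.63, 7.32 and 7.17 in AZD1208 lines and 7.37, 6.67 and 7.06 in vehicle lines, against 6.67 to 6.79 on the parental arrays. For Itgb4 both groups had lines above and below the parental arrays, while for Itga6 the vehicle lines were all above the parental mean and AZD1208 2 was the only AZD1208 line above it. Itgb1, the common partner of most alpha subunits, was at 11.36, 11.71 and 10.48 in AZD1208 lines and 11.60, 11.50 and 10.76 in vehicle lines, against 10.90, 11.02 and 10.96 on the parental arrays. The lines numbered 3 were below the parental arrays in both groups and the other 4 lines above.

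Of the integrins that recognise the RGD peptide of fibronectin and vitronectin, the beta partners of Itgav, the alphav subunit, differed by line. Itgb3, the beta3 subunit of the vitronectin receptor, was at 7.64, 9.02 and 9.50 in AZD1208 1, 2 and 3 and at 7.46, 9.91 and 8.99 in vehicle 1, 2 and 3, against 9.37, 9.40 and 9.29 on the parental arrays. It was low in AZD1208 1 and vehicle 1, whose differences from the parental mean were -1.72 and -1.90, while those of the other lines lay between -0.36 and 0.56. Its group means were 8.72 ± 0.97 in AZD1208 lines and 8.79 ± 1.24 in vehicle lines (SD, n = 3 each), a difference of -0.07 (SE 0.68) inside the spread between lines.

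Itgb5, the beta5 subunit, which also binds vitronectin, was at 11.90, 12.37 and 11.66 in AZD1208 lines and 13.09, 11.73 and 11.60 in vehicle lines, against 11.61, 11.51 and 11.55 on the parental arrays. Vehicle 1, the lowest line for Itgb3, was the highest for Itgb5. Itgb8, the beta8 subunit, known for activating latent TGF-beta, was at 6.40, 7.20 and 6.13 in AZD1208 lines and 7.11, 5.94 and 5.95 in vehicle lines, against 5.97, 6.07 and 5.81 on the parental arrays. AZD1208 2 and vehicle 1 were the 2 highest lines for both Itgb5 and Itgb8. Itgav was at 9.99, 10.86 and 9.78 in AZD1208 lines and 10.59, 10.61 and 9.78 in vehicle lines, against 9.82, 9.95 and 9.54 on the parental arrays (difference from the parental line 0.50, SE 0.45). AZD1208 3 and vehicle 3 lay among the parental arrays. A second probe set of Itgav, at 5.23 to 5.64 on the 9 arrays, lay below the value of 5.81 under which genes were not tested, and is no check of the first.

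The windows before Itgb5 and Itgb8 are shown as those of the RGD-binding subunits that were high in the same lines (RefSeq, GRCm38.p6, capitals as above).
Itgb5, chr16:33829415-33829664, plus strand: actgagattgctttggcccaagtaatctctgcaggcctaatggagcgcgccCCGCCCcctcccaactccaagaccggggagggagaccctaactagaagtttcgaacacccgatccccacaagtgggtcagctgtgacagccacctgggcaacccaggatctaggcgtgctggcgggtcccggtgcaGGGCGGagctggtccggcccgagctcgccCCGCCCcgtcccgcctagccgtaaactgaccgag
Itgb8, chr12:119238277-119238526, minus strand: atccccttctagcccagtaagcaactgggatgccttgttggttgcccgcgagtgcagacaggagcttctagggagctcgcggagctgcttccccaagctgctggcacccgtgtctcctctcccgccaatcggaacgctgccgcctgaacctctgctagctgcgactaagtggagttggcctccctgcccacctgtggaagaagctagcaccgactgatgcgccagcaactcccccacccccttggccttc
Itgb5 holds 3 matches to the GC box and Itgb8 holds 0, and neither holds another of the motifs. Of the 35 genes, 22 matched the RefSeq promoter table, with 25 windows. Of these 25 windows 9 held the GC box, 5 the androgen receptor half-site, 1 the AP-1 motif and 0 the E-box. Over all 32851 windows the shares were 32.7%, 16.1%, 6.75% and 6.02% in the same order. Whether the members differ from these shares was not tested.

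The other RGD-binding genes varied less. Itga5, the fibronectin receptor's alpha subunit, was at 11.06 to 11.64 in AZD1208 lines and 11.41 to 11.79 in vehicle lines, against 11.26 to 11.41 on the parental arrays. Itgb6, an epithelial partner of Itgav that also activates TGF-beta, was at 6.18 to 6.49 in AZD1208 lines and 6.17 to 6.68 in vehicle lines, against 5.99 to 6.25 on the parental arrays. Itga2b, the platelet subunit, and Itga8 spanned 0.47 and 0.24 over the recurrent lines.

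Of the collagen-binding subunits, Itga2 was at 6.19, 6.98 and 6.43 in AZD1208 lines and 5.88, 6.90 and 6.10 in vehicle lines, against 6.37, 6.42 and 6.60 on the parental arrays. The lines numbered 2 were the highest in both groups. Itga11 and Itga1 spanned 0.53 and 0.38 over the recurrent lines. Itga9 and Itga4, related subunits that bind tenascin or the adhesion protein Vcam1, had small positive differences between AZD1208 and vehicle lines of 0.27 (SE 0.18) and 0.21 (SE 0.21). Itga9 was at 6.73, 7.21 and 7.10 in AZD1208 lines and 6.73, 6.57 and 6.91 in vehicle lines. The Itga4 difference was 0.04 without AZD1208 3.

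The 7 integrin genes known from leukocytes (Itgad, Itgae, Itgal, Itgam, Itgax, Itgb2 and Itgb7) spanned 0.17 to 0.68 over the recurrent lines, and none reached a span of 1. They lay at 4.93 (Itgad) to 6.85 (Itgb2) over the 9 arrays, around the value of 5.81 below which genes were not tested. Small spans at such levels do not show that these genes were steady. Ptprc, which encodes the leukocyte antigen CD45, was at 4.49 to 5.12 over the 9 arrays. The leukocyte marker list (11 genes with a value) differed on average from the parental mean by -0.10, 0.21 and 0.12 in AZD1208 lines and by 0.15, 0.31 and -0.06 in vehicle lines. Its members differed by line and in direction. Of the 9 tested, 4 had positive and 5 negative differences of recurrent lines from the parental line, with a median of -0.05. Lyz2, the lysozyme of macrophages and other myeloid cells, was at 5.18, 6.42 and 4.74 in AZD1208 lines and 7.10, 6.97 and 4.80 in vehicle lines, against 4.96 to 5.36 on the parental arrays. Adgre1, a surface receptor of macrophages, was at 5.38 to 5.80 in AZD1208 lines and 6.22, 6.54 and 5.81 in vehicle lines, against 5.53 to 5.69 on the parental arrays. Cd68, a lysosomal protein of macrophages, was at 7.11, 8.08 and 7.24 in AZD1208 lines and 7.57, 7.39 and 7.24 in vehicle lines, against 7.03 to 7.06 on the parental arrays. Csf1r went the other way, at 6.20, 6.165 and 6.41 in AZD1208 1, 2 and 3 and at 6.145, 5.931 and 6.22 in vehicle 1, 2 and 3. On the parental arrays Csf1r was at 6.24 to 6.47, and AZD1208 3 was the only line not below all of them. Cd14 was at 8.86 and 8.81 in AZD1208 2 and vehicle 2 but 6.54 in vehicle 1, against 8.05 to 8.11 on the parental arrays. The part of leukocytes in the values of AZD1208 2, vehicle 1 and vehicle 2 was not tested. Itgb2, the beta subunit of most of these receptors, was the only tested gene of the set with all 6 lines below the parental mean (difference -0.25, SE 0.21). Its lines were at 6.14, 6.39 and 6.54 in AZD1208 and 6.34, 6.49 and 6.36 in vehicle, against 6.50, 6.52 and 6.85 on the parental arrays, so the ranges overlapped.

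**Figure D2:**
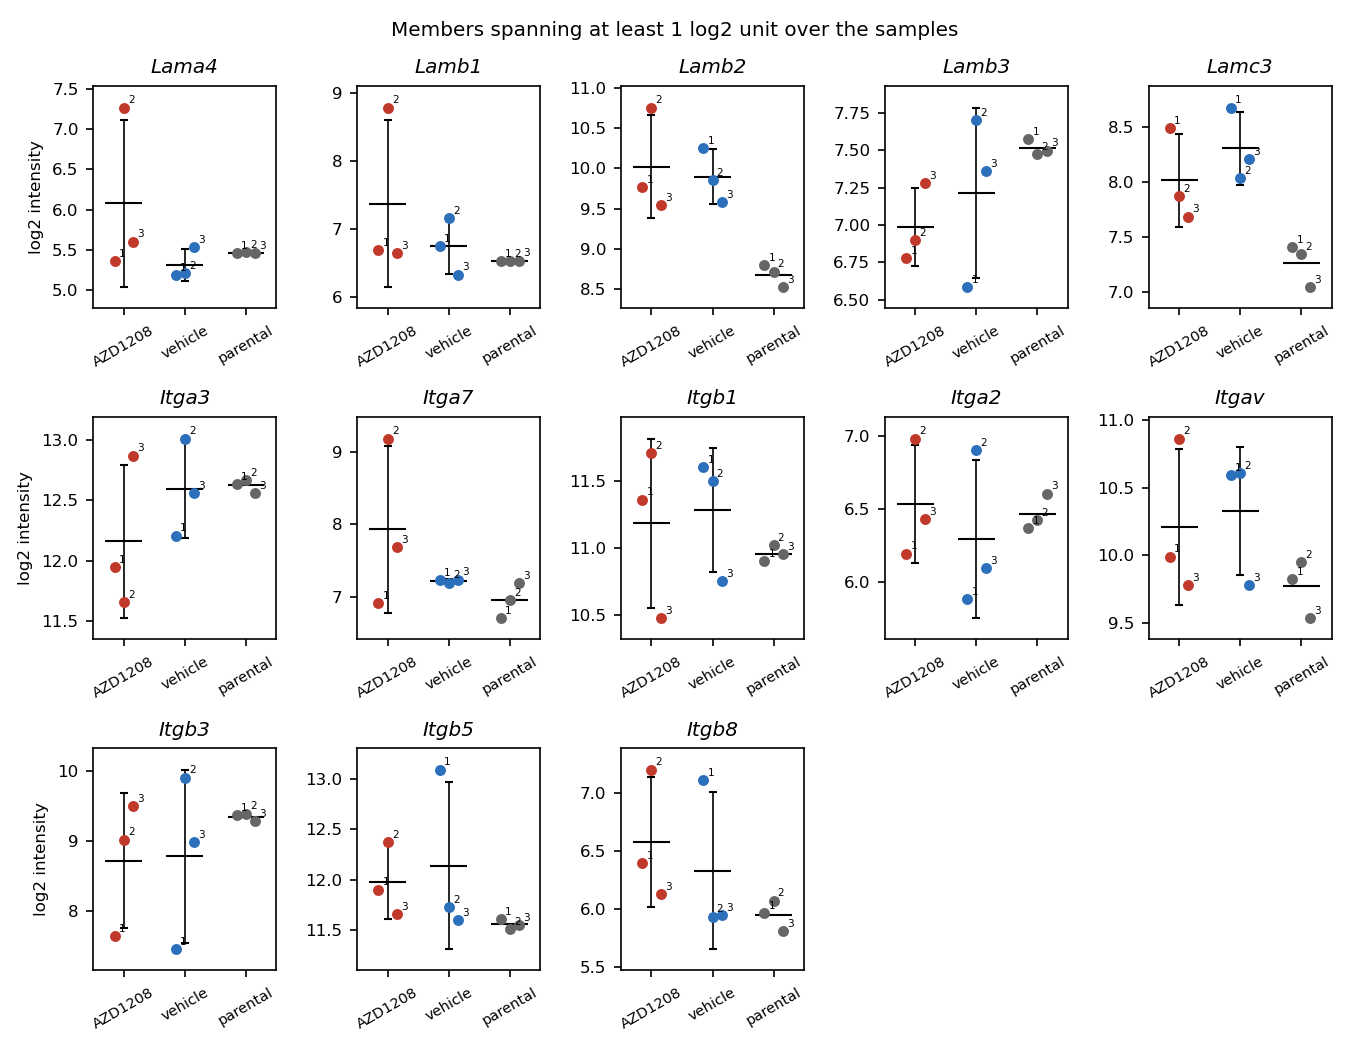
Log2 intensity (vertical axes, each with its own range) of the 13 genes that spanned at least 1 over the 6 lines and the parental mean, with 1 point per array, numbered by replicate. Horizontal lines are group means and bars the SD of the 3 lines (technical arrays of the parental line have no bar). Lamb2 and Lamc3 lines all lie above the parental arrays, while for Lama4, Lamb1 and Itga7 line 2 of AZD1208 stands alone.

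The highest of the 6 lines was AZD1208 1 for 1, AZD1208 2 for 10 and AZD1208 3 for 7 of the 30 genes tested, against 10.5%, 18.1% and 27.2% of all genes tested. It was vehicle 1 for 3, vehicle 2 for 8 and vehicle 3 for 1 of the 30, against 11.7%, 10.3% and 22.2% of all genes. The lowest line was AZD1208 1 for 8, AZD1208 2 for 3 and AZD1208 3 for 5 of the 30 (all genes 14.9%, 20.9% and 24.4%), and vehicle 1 for 4, vehicle 2 for 8 and vehicle 3 for 2 (all genes 16.4%, 18% and 5.4%). Itga7 and Lamb1 were 2 of 30 genes (6.67%) for which AZD1208 2 stood apart above the other 5 by Dixon's criterion, against 1.26% of all genes. Counting any line, 2 of the 30 had 1 line apart above, against 5.31% of all genes, and 1 (Lama1) had 1 line apart below, against 3.99%. In AZD1208 2, 12 fibroblast markers averaged 1.10 above the parental mean, against 0.35 to 0.67 in the other 5 lines. Of the 12, 6 lay above that mean in AZD1208 2, and 4 and 10 in AZD1208 1 and 3. The counts were 5, 5 and 7 in vehicle lines and 4, 6 and 8 on the parental arrays. The list mean was 7.09 to 7.83 in AZD1208 lines and 7.12 to 7.40 in vehicle lines, against 6.72 to 6.76 on the parental arrays. Of the 10 tested, 5 had positive and 5 negative differences of recurrent lines from the parental line, with a median of -0.01. The higher mean thus came from a part of the list. Pdgfrb, the receptor of pericytes and fibroblasts, was at 9.78 in AZD1208 2, with 6.49 to 7.22 in the other lines, against 6.69 to 6.97 on the parental arrays. The matrix gene Postn was at 12.72 in AZD1208 2 and 7.86 to 10.53 in the other lines, against 5.17 to 5.55 on the parental arrays. The collagen genes Col1a1 (7.33) and Col3a1 (6.61) and the proteoglycan gene Lum (4.58) were not above the parental means in AZD1208 2. The part of other cell types in these values was not tested, and in RNA of a whole culture fewer cells of a type and less RNA per cell cannot be told apart.

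The median span of the 30 tested genes over the 6 recurrent lines was 0.74, against 0.63 over all genes tested. Over the 7 samples, the parental mean included, 12 of the 30 spanned at least 1 (40%), against 21.6% of all genes tested. Over all 35 genes, with no filter, this was 13 (37.1%), against 16.9% of 22180 genes. The median SD of the 30 was 0.32 between AZD1208 lines and 0.31 between vehicle lines, and 0.07 between parental arrays, where all genes tested had 0.25, 0.19 and 0.09. By role, the 3 laminin beta chains had spans of 1.11 to 2.45 over the recurrent lines, the 4 laminin-binding integrins 0.74 to 2.27 and the 8 RGD-binding integrins 0.24 to 2.46.

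**Figure D3:**
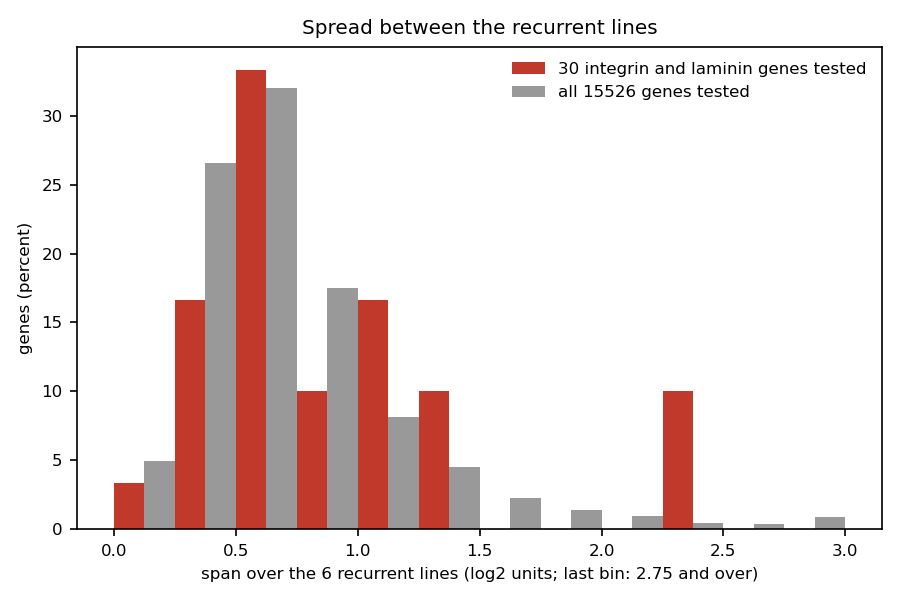
Share of genes in percent (vertical axis) by their span over the 6 recurrent lines in log2 units (horizontal axis, bins of 0.25), for the 30 integrin and laminin genes tested (red) and all 15526 genes tested (grey). The red bar at 2.25 to 2.5 stands for Itga7, Lamb1 and Itgb3.

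The comparison of AZD1208 with vehicle lines asks whether lines that grew under the PIM inhibitor differ. None of the 30 genes passed (limma, adjusted p = 1.0 for each), as did 0% of all 15526 genes. At an unadjusted p under 0.05 there were 0 of the 30, against 0.522% of all genes (0.155% higher and 0.367% lower in AZD1208 lines). For no tested member did the 3 AZD1208 lines lie clear of the 3 vehicle lines, against 1.41% of all genes with AZD1208 higher and 1.97% with AZD1208 lower. Within same-numbered pairs of lines, AZD1208 was lower in all 3 pairs for 4 of the 30 genes (Itga5, Itga6, Lama3 and Lamc3, 13.3%), against 9.64% of all genes, and higher in all 3 for 3 (Itga2, Itga2b and Itgb7, 10%), against 7.08%. With the replicate number as a block, none of the 30 genes passed either. Differences of the 30 genes ran from -0.43 (Itga3) to 0.71 (Itga7), with a median of -0.03, against -0.02 over all genes, and 14 of the 30 were positive (46.7%), against 45.2% of all genes. The 8 genes of smallest unadjusted p were Itga9, Itga7, Itga6, Itga3, Lama3, Lamc3, Lamb1 and Itga4, between 0.178 and 0.347. Of these Lama3 differed by -0.25 (SE 0.20) and Lamc3 by -0.29 (SE 0.26). The intervals do not show that the groups are alike. For Itgb3 the 95% interval ran from -1.67 to 1.53, for Itgb1 from -0.94 to 0.73 and for Itga5 from -0.64 to 0.30.

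The comparison of recurrent lines with the parental line asks what differs after growth in castrated mice and culture without androgen. None of the 30 genes passed (limma, smallest adjusted p = 1.0), nor did any of the 15526 genes (0%). At an unadjusted p under 0.05 there were 2 of 30, Lamb2 and Lamc3 (6.67%), against 2.76% of all genes. For both the recurrent lines were higher, against 2.02% of all genes. In AZD1208 lines alone there was 1 of 30 (Lamb2), against 2.63% of all genes, or 1.6% counting those that were higher. In vehicle lines alone there were 2 of 30, again Lamb2 and Lamc3, against 2.3% of all genes, or 1.91% counting those that were higher. These comparisons share the parental sample. Lamb2 and Lamc3 were also the 2 genes with all 6 lines above every parental array (6.67%), a share close to the 6.94% of all genes. None had all 6 lines below every parental array, against 5.06% of all genes. Relative to the parental mean, 6 of the 30 had all lines above (Itgav, Itgb5, Itgb6, Lamb2, Lamc1 and Lamc3, 20%), against 11.8% of all genes. For 1 of 30 (Itgb2) all lines were below that mean, against 10.8% of all genes. The count of 6 was 3 with arrays centred on their median. Differences ran from -0.60 (Itgb3) to 1.28 (Lamb2), with a median of 0.04, against -0.02 over all genes, and 18 of 30 were positive (60%), against 45.5% of all genes. Positive differences numbered 18 in AZD1208 lines alone, against 46.5% of all genes, and 16 in vehicle lines alone, against 46.4%. The 8 genes of smallest unadjusted p were Lamb2, Lamc3, Lamc1, Itgb2, Itgav, Lamb3, Lama5 and Itgb8, the last with a difference of 0.51 (SE 0.52).

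**Figure D4:**
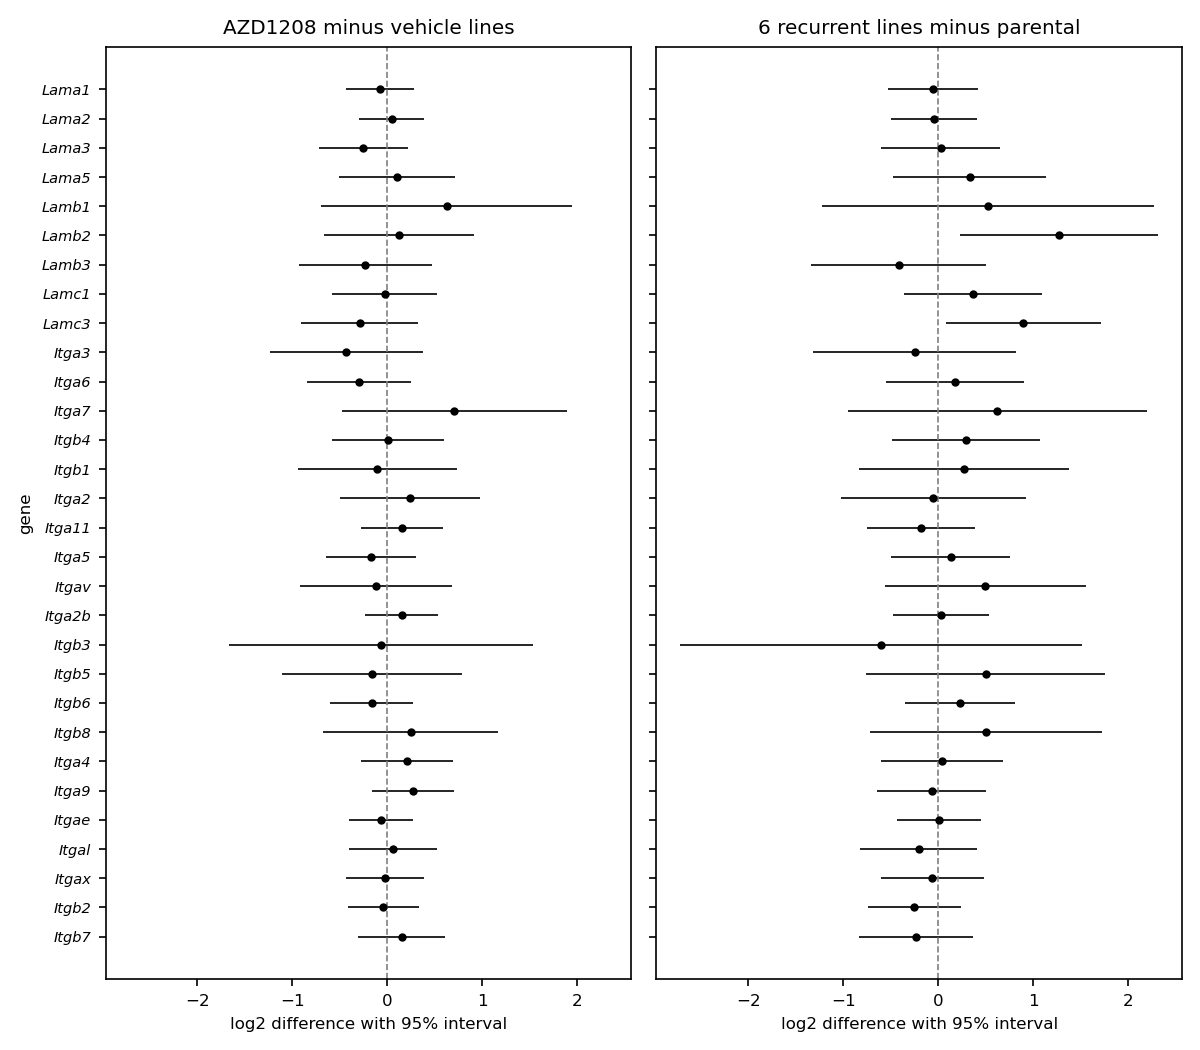
Log2 differences (points) with 95% intervals (bars) from the limma fit for the 30 genes tested, AZD1208 minus vehicle lines on the left and recurrent lines minus the parental line on the right. The intervals of Lamb2 and Lamc3 against the parental line are the ones that leave out 0, without adjustment for the number of genes.

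Genes that work with integrins and laminins were examined as 4 lists, and no gene of any list passed in either comparison (limma). Over all genes tested 45.5% of differences from the parental line were positive, with a median of -0.02, and so were 45.2% of those between AZD1208 and vehicle lines. Of 21 integrin ligands outside the laminins, 13 had positive and 8 negative differences from the parental line, with a median of 0.18. Npnt, which encodes nephronectin, a ligand of the integrin of Itga8 and Itgb1, was at 9.34, 11.10 and 8.71 in AZD1208 lines and 10.25, 10.09 and 9.17 in vehicle lines, against 8.33 in the parental line (difference 1.44, SE 0.79). All 6 lines lay above the parental mean, AZD1208 2 the highest. Vtn, the vitronectin gene, was highest in vehicle 1 at 9.51, with 7.99, 8.14 and 7.44 in AZD1208 lines and 6.73 and 7.29 in the other vehicle lines, against 6.63 in the parental line (difference 1.22, SE 0.87). Vehicle 1 was also the highest line for Itgb5. Mfge8, an RGD protein that bridges cells, differed by 0.41 (SE 0.22) and Tgfb3 by 0.47 (SE 0.28). Between AZD1208 and vehicle lines, 13 ligands had positive and 8 negative differences, among them the fibronectin gene Fn1 (-0.28, SE 0.19) and Icam1, a ligand of leukocyte integrins (0.46, SE 0.33).

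Of 13 hemidesmosome and other laminin receptor genes, 6 had positive and 7 negative differences from the parental line (median -0.06). An unadjusted limma p under 0.05 was found for 2 of the 13, against 2.76% of all genes. In the other lists it was found for 0 of 21 integrin ligands, 0 of 22 basement membrane genes and 0 of 33 focal adhesion genes. Mcam, an adhesion receptor that binds laminins with the alpha4 chain, was at 9.98, 11.46 and 8.79 in AZD1208 lines and 10.16, 9.43 and 9.10 in vehicle lines, against 7.65 in the parental line (difference 2.17, SE 0.83). All lines were above the parental value, with AZD1208 2 the highest as for Lama4. Krt14, a keratin of basal cells, differed by -0.72 (SE 0.23). Neither passed after adjustment over all genes. Dst, a linker between hemidesmosomes and keratin, differed by 0.75 (SE 0.43) and Sgcb, a sarcoglycan, by 0.70 (SE 0.34).

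Of 22 basement membrane genes outside the laminins, 8 had positive and 14 negative differences from the parental line (median -0.03), near the median of all genes. Col4a5, a type IV collagen chain, differed by 0.66 (SE 0.39), Smoc1 by 0.65 (SE 0.31) and Sparc by 0.39 (SE 0.26), while Col4a2 differed by -0.36 (SE 0.23). Of 33 genes of integrin activation and focal adhesions, 21 had positive and 12 negative differences (median 0.05), from -0.60 for Tns4, a tensin, to 0.67 for Fyn, a Src family kinase. Between AZD1208 and vehicle lines the medians of these 3 lists were -0.03 for laminin receptors, 0.08 for basement membrane genes and -0.03 for focal adhesion genes.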

How the data were processed

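RNA from the cell lines was measured on 9 arrays (1 per line, 3 of the parental line), per the labels. The authors deposited log2 intensities, 1 per probe set and array (41345 probe sets), made with oligo per the submitters' processing notes; the sources used here give no version, background correction, normalization or summary method for it.

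Gene names came from the platform annotation. For all 35 members the symbol matched RefSeq's for the Entrez identifier. Where a gene had several probe sets, that of highest mean was kept, and 2 probe sets that carry a member's symbol beside another were not used. The 30% of genes with the lowest mean (below 5.81) were left out, which left 15526. The 3 parental arrays were averaged to 1 sample, and the 7 samples were fitted by group with limma 3.58.1 (lmFit, eBayes; R 4.3.3; 4 residual and 3.36 prior degrees of freedom), with Benjamini-Hochberg adjustment over all genes and a threshold of 0.05. The lone parental sample is assumed to vary like the lines, and p-values cover the spread between lines only. The fit was tested on simulated data for AZD1208 against vehicle, with 15526 genes. Normal noise was drawn independently for each gene and sample from the fitted spread, and 50 genes each were changed by -2, 1, 2 and 3. Of 50 genes changed by a log2 difference of 1, 46% passed, as did 96% of those changed by 2 and 0.085% of unchanged genes. These shares can overstate what was detectable in the data. The many planted changes eased the Benjamini-Hochberg threshold for each changed gene, while in the data no gene passed. The simulated noise was independent between genes. In the data 0.522% of all genes had an unadjusted limma p under 0.05 for AZD1208 against vehicle. The 30 members also had higher median SDs between lines than all genes. The number of arrays limits the precision.

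Members given by sample spanned at least 1 over the 7 samples, except for shorter accounts of other members; the 8 members of smallest p per comparison and up to 4 genes per related list are named, and other genes were chosen after their values were seen. The members and lists were chosen with earlier results of these data known. Deviations from the group means correlated at 0.146, 0.118 and 0.532 for AZD1208 and vehicle lines of the same number, above a criterion of 0.1. No label pairs the lines, and the unlike pair AZD1208 2 and vehicle 1 correlated at 0.264. The main fit has no block, so its SEs, p-values and intervals for AZD1208 against vehicle ignore any pairing by number. Such pairing was used only for the within-pair values and counts and in a fit with the number as a block. The blocked fit was an alternative, as were other normalizations, filters, probe set rules, array quality weights and leaving out single arrays.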

Additional observations from a re-analysis of the deposited data

Results flagged for a closer look

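For 4 genes 1 recurrent line stood apart from the other 5, with a gap to its nearest neighbour, as a share of the whole range, above Dixon's 95% critical value. All 4 concern AZD1208 2. Lama4 was at 7.27 in AZD1208 2 and 5.60 in the next line (share 0.80), Lamb1 at 8.78 and 7.16 (share 0.662), and Itga7 at 9.18 and 7.69 (share 0.66). Lama1 was lower there, at 6.13 against 6.38 in the next line (share 0.773), within a range of 0.32. Chance flags about 1 in 20 groups. Of all genes tested, 5.31% had a line apart above and 3.99% a line apart below. The 6 lines come from both the AZD1208 and vehicle groups.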

How the results depend on the processing

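No integrin or laminin gene passed the threshold in any of the 4 comparisons under any alternative run. Over these alternatives Lamb2 stood 1.09 to 1.40 above the parental line (smallest adjusted p = 0.0558, limma, with parental arrays as 3 samples) and Lamc3 0.78 to 1.001. Other differences from the parental line moved more relative to their size, though not always in log2 units. Itgb2 went to -0.13 without parental array 3, and Lamb3 to -0.26 and Itgb8 to 0.31 without vehicle 1. Itgav went to 0.29 as the mean of its probe sets. Between AZD1208 and vehicle lines, Lamc3 turned to 0.11 with array quality weights, and Lamb1 ranged from -0.080 (without AZD1208 2) to 0.99 (without AZD1208 3) with single arrays left out. The others of that comparison kept their sign but not their size: Itga7 ranged from 0.08 to 1.21, Itga3 from -0.79 to -0.18, Itga6 from -0.52 to -0.12, Lama3 from -0.38 to -0.08, Itga9 from 0.11 to 0.42 and Itga4 from 0.04 to 0.32. Of all genes, with parental arrays as 3 samples, which treats technical spread as biological, 156 passed for recurrent against parental, 41 for AZD1208 against parental and 53 for vehicle against parental. With array quality weights these were 1 for recurrent and 2 for AZD1208 against parental, and leaving out single arrays gave 0 to 1 for AZD1208 against parental (1 without vehicle 1). The count of members with all lines above the parental mean, 6, was 3 with centring on the median, 4 with quantile normalization and 4 (without parental array 3) to 9 (without AZD1208 1) with single arrays left out. The count above every parental array, 2, was 2 to 4 with single arrays left out (4 without vehicle 3). The count below the parental mean, 1, was 2 with quantile normalization or centring, 0 with 50% of genes left out and 0 to 3 with single arrays left out. These 3 counts were added after seeing the data. With the replicate number as a block, 0 genes passed for AZD1208 against vehicle, as without it, and the block changed no call. The cause of these changes was not tested.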

Other observations

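Exactly equal deposited values on 2 or more of the 9 arrays were found for 10 of the 35 integrin and laminin genes (28.6%) and for 37.7% of all 22180 genes. On 2 or more parental arrays this held for 3 of the 35, Itgae, Lama1 and Lama2, and for 11.6% of all genes. The SD of the parental arrays of these genes is therefore no measure of their precision. None of the 13 genes that spanned at least 1 was among the 10.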
